A study of Homo sapiens with 9 samples.

Results

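LSD1, encoded by KDM1A, is a flavin-dependent histone demethylase that removes methyl groups from lysine 4 of histone H3. It usually works inside the CoREST complex with the deacetylases HDAC1 and HDAC2, where it is known for keeping genes such as those of neurons silent, and it also acts with nuclear receptors. A gene start is where RNA polymerase begins, and many human starts lie in CpG islands, stretches rich in G, C and the dinucleotide CG.

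The regions described here are the LSD1 ChIP-seq peaks that touched the 1 kb on either side of a gene start, with the start taken from the strand and ends of each of 20318 protein-coding genes. They numbered 326 of 20495 peaks at 30 min and 453 of 34990 peaks at 0 min. The cells were T47D-MTVL, which derive from a luminal breast cancer and hold an integrated mouse mammary tumour virus promoter reporter. All groups were kept in serum-free medium for 1 day, and the 30 min LSD1 group then received the synthetic progestin R5020 at 10 nM, while the 0 min LSD1 group received none. Also used were the peaks of HP1γ, a heterochromatin protein, at 30 and 0 min, the peaks of BPTF, a subunit of the NURF remodelling complex, reported as gained or lost with hormone, and histone H2A over genes at 0, 30 and 60 min. The HP1γ, BPTF and H2A groups at 30 or 60 min likewise received the progestin at 10 nM, and those at 0 min none. Each antibody and time had 1 library of a single line. No difference below could therefore be tested against the spread between cultures, no p-value is given, and Wilson 95% intervals cover only the counting of peaks or genes. All coordinates are on GRCh37, also called hg19.

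The sequences under 4 of these peaks show the range of DNA that LSD1 was called on. They are 300 reference bases each, written 5′ to 3′ along the strand of the named gene, with every CG dinucleotide in capitals. COPA had the highest-scored gene-start peak at 0 min. DNAJB11 and PDE4DIP led the genes with overlapping peaks at both times, and the bases shown lie in the shared part. NUDT5, the nuclear enzyme that makes ATP from ADP-ribose in the study's design, was added after its values were seen.
COPA, chr1:160314084-160314383, minus strand: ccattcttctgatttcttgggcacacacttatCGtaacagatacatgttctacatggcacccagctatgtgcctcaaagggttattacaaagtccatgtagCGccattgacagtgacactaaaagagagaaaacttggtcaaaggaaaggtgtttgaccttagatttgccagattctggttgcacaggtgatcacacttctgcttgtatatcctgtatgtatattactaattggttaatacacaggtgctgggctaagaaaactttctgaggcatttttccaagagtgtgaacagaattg
DNAJB11, chr3:186284678-186284977, plus strand: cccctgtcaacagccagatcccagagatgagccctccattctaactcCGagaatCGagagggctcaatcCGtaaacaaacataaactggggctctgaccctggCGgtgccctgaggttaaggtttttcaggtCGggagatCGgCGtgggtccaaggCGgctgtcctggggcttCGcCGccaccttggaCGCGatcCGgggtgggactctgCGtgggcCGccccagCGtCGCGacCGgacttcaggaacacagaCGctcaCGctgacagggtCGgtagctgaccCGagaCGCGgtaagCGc
PDE4DIP, chr1:145076484-145076783, minus strand: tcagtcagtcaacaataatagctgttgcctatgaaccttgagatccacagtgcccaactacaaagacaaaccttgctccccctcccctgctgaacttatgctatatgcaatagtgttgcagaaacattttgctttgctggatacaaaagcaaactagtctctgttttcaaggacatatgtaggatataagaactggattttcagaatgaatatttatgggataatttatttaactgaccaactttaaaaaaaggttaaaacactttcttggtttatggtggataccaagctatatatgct
NUDT5, chr10:12237130-12237429, minus strand: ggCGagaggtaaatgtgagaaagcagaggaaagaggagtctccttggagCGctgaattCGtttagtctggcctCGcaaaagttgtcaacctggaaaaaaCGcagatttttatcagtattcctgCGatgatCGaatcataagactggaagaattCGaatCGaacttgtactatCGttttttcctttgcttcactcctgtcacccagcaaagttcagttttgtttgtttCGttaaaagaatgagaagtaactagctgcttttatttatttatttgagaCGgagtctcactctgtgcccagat
The COPA stretch held 2 CG dinucleotides and had a GC content of 40.7%. The DNAJB11 stretch held 26 and had 62.7% GC, whereas the PDE4DIP stretch held 0 and had 36.3% GC. The NUDT5 stretch lay between them, with 12 CG dinucleotides and 41.0% GC.

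LSD1 peaks were not gathered at gene starts at either time. The 326 peaks at 30 min were 1.59% of that list (interval 1.43 to 1.77). A peak of median width placed at any position of the same chromosomes would touch a window at 1.62% of positions, which corresponds to 333.0 peaks. The 453 peaks at 0 min were 1.29% of their list (1.18 to 1.42), below the 1.68% of positions that touch a window, which corresponds to 586.7 peaks. HP1γ, read the same way, had 474 of 23836 peaks at starts at 30 min (1.99%) and 815 of 31845 at 0 min (2.56%), above 1.63% and 1.68% of positions. The LSD1 peaks touched the 1 kb windows around the starts of 352 genes at 30 min, 1.73% of all genes. At 0 min they touched those of 483 genes, 2.38% of all genes. These 2 shares are the background against which gene lists are read below. Some peaks touched the windows of several starts, 30 at 30 min and 37 at 0 min.

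The position of the peaks around the start differed between the times. At 30 min, 119 of 326 midpoints (36.5%, 31.5 to 41.9) lay within 500 bp of the start, against 98 of 453 (21.6%, 18.1 to 25.7) at 0 min. The median distance of the midpoint from the start was 641 bp at 30 min and 815 bp at 0 min. Peaks that covered the start base itself were 46 (14.1%) at 30 min and 49 (10.8%) at 0 min. Upstream midpoints were 46.9% at 30 min and 52.1% at 0 min, so neither side of the start was preferred beyond the counting interval. About as many midpoints fell in introns, 165 (50.6%) at 30 min and 230 (50.8%) at 0 min. UTRs held 36 midpoints at 30 min and 35 at 0 min, and coding exons held 19 and 16.

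**Figure D1:**
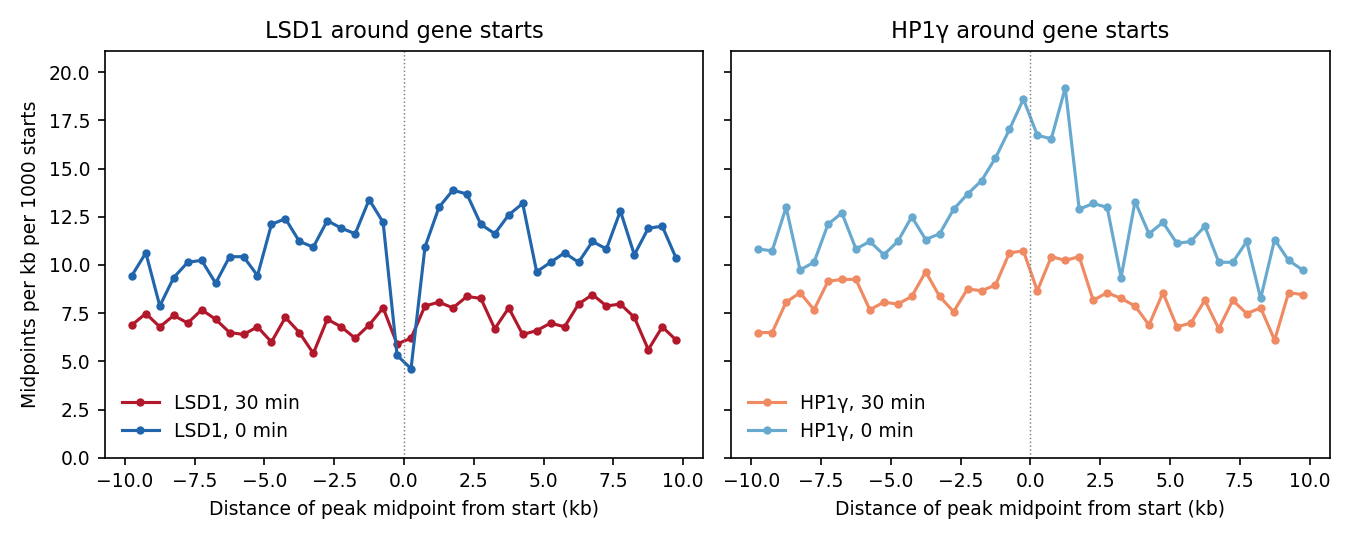
LSD1 (left) and HP1γ (right) peak midpoints per kb and per 1000 gene starts in 500 bp bins from 10 kb upstream (below 0) to 10 kb downstream. The untreated LSD1 line drops to 47 midpoints in the first bin downstream of the start, against 111 in the next bin, while the 30 min line stays close to its surroundings.

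The untreated profile had a trough at the start that was shallower at 30 min. Midpoint density within 500 bp was divided by the density 1 to 10 kb away. At 30 min this ratio was 0.857 for LSD1 (exact 95% interval from the counts 0.709 to 1.03), from 123 and 2582 midpoints. At 0 min it was 0.443 (0.360 to 0.540), from 101 and 4096 midpoints. The 2 intervals do not overlap. HP1γ had no trough over all starts, with ratios of 1.19 (1.02 to 1.37) at 30 min and 1.503 (1.35 to 1.67) at 0 min. In the bins beside the start, LSD1 had 60 midpoints in the last 500 bp upstream and 63 in the first 500 bp downstream at 30 min, against 54 and 47 at 0 min. One bin further out, it had 79 upstream and 80 downstream at 30 min, against 124 and 111 at 0 min. The counts at the start itself were thus similar at both times, and the larger 0 min numbers lay to its sides. Peaks just inside the edge of the window, with the nearest base 750 to 1000 bp from a start, had a median score of 34.4 at 30 min and 36.8 at 0 min, and those just outside it had 34.3 at 30 min and 36.8 at 0 min. The score is the authors' own value per peak and is used here within a list only.

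The trough followed base composition. Gene starts were split into 5 groups of about equal size by the GC content of the 2 kb around them, with limits at 46.3%, 52.6%, 57.2% and 62.2%. At 0 min the ratio of LSD1 midpoints within 500 bp to those 1 to 10 kb away was 0.915 in the most AT-rich group and then 0.508, 0.258, 0.157 and 0. In the most GC-rich group, 0 midpoints lay within 500 bp, against 513 at 1 to 10 kb, and the ratio's upper limit was 0.130. At 30 min the same 5 ratios were 1.04, 0.972, 0.997, 0.587 and 0.603, the last from 15 midpoints with an interval of 0.335 to 1.01. The intervals of the 2 times do not overlap in the middle group and in the most GC-rich group. HP1γ fell below 1 in the most GC-rich group as well, with 0.493 (0.267 to 0.834) at 30 min and 0.881 (0.618 to 1.22) at 0 min, and lay above 1 in the other groups at both times.

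**Figure D2:**
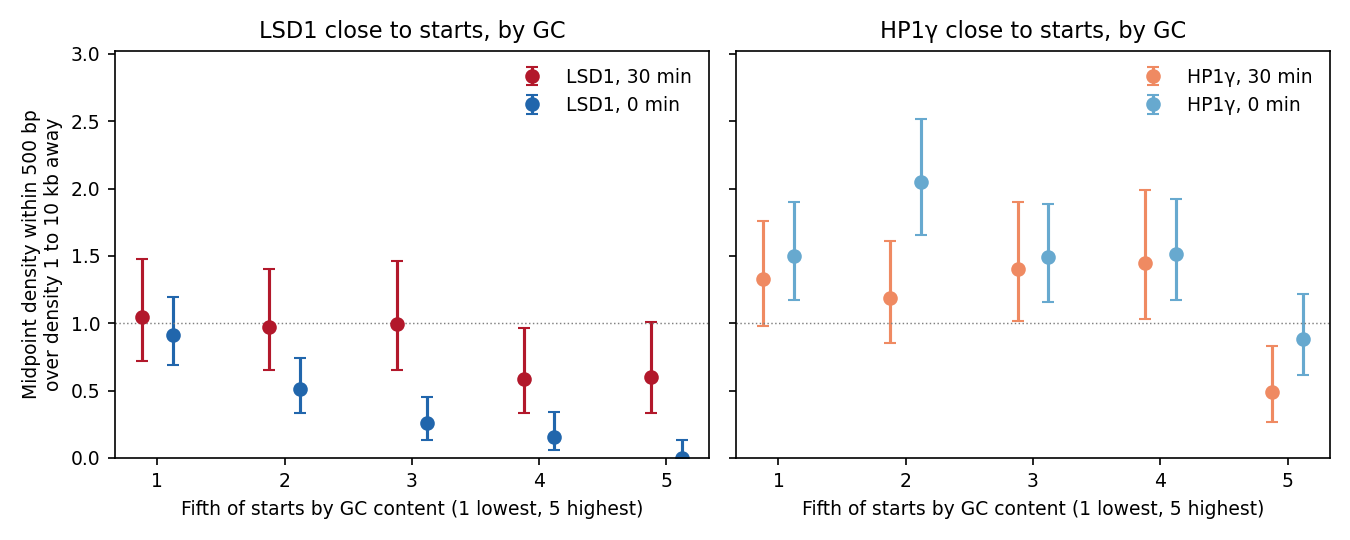
Midpoint density within 500 bp of starts over that 1 to 10 kb away, for starts in 5 groups by GC content, with LSD1 left and HP1γ right (exact 95% intervals from counts). Untreated LSD1 declines from 0.915 to 0 across the groups, and LSD1 at 30 min from 1.04 to 0.603.

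The share of starts whose window was touched by a peak also declined with GC at 0 min. At 0 min LSD1 peaks touched 4.19% of start windows in the most AT-rich group, then 3.23%, 2.42%, 1.47% and 0.571%, the last from 23 genes. At 30 min the 5 shares were 2.04%, 1.88%, 1.82%, 1.38% and 1.54%, with 62 genes in the most GC-rich group. LSD1 peaks in the surrounding 100 kb on each side also thinned with GC, less steeply, with means at 0 min of 2.69 per gene in the most AT-rich group and 1.32 in the most GC-rich, and at 30 min of 1.47 and 1.13. Starts with the composition of a CpG island, taken as at least 50% GC and an observed over expected CG ratio of at least 0.6 in the 2 kb window, had ratios close to the start of 0.574 (0.408 to 0.787) at 30 min and 0.135 (0.0753 to 0.223) at 0 min. Other starts had 1.12 (0.888 to 1.40) at 30 min and 0.738 (0.588 to 0.916) at 0 min. The trough at 0 min was present in both groups of chromosomes compared. Chromosomes 1, 3, 5, 12 and 17 held the most genes with a 0 min start peak, so the split is not independent of the ratio. There the ratio was 0.928 (0.707 to 1.199) at 30 min and 0.493 (0.376 to 0.635) at 0 min. On the other chromosomes it was 0.794 (0.604 to 1.027) at 30 min and 0.385 (0.274 to 0.526) at 0 min. Both intervals at 30 min include 1, so no trough was shown in either chromosome group at that time, unlike in the CpG island starts above. Sequence libraries can differ in how evenly they recover GC-rich DNA, and here the H2A change between the same times also followed GC, as given below. Its part in the LSD1 difference was not tested.

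The peak centres carried the same difference. The central 300 bases of the gene-start peaks had a median GC content of 48.3% (quartiles 40.3 to 57.0) at 30 min and 39.7% (36.3 to 43.3) at 0 min. LSD1 peaks away from starts had medians of 38.0% (33.0 to 44.7) at 30 min and 37.7% (35.0 to 41.3) at 0 min. The gene-start peaks at 0 min were thus close to the rest of their list in composition, and those at 30 min were richer in GC than the rest of theirs. A GC box, GGGCGG on either strand and the site of SP1, was found in 68 of 326 centres (20.9%, 16.8 to 25.6) at 30 min and in 16 of 453 (3.53%, 2.19 to 5.66) at 0 min. It was in 52.7% of windows of the same length centred on all gene starts. It occurred in 2.90% of centres away from starts at 30 min and in 1.22% at 0 min.

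The other motifs searched did not move in 1 direction. The E-box CAGGTG, bound by the repressors SNAI1 and ZEB1, occurred in 28.5% (23.9 to 33.7) of gene-start centres at 30 min and in 17.2% (14.0 to 21.0) at 0 min, against 23.01% of all gene starts. The AP-1 site TGANTCA occurred in 4.60% (2.81 to 7.45) at 30 min and in 10.2% (7.70 to 13.3) at 0 min, against 5.31% of all gene starts. The steroid receptor half-site AGAACA, which progesterone receptor also binds, occurred in 16.3% (12.7 to 20.7) at 30 min and in 25.2% (21.4 to 29.4) at 0 min, against 12.2% of all gene starts. The forkhead site GTAAACA occurred in 6.75% at 30 min and in 4.19% at 0 min, against 2.32% of all gene starts. In the centres of LSD1 peaks away from starts the E-box occurred in 3957 of 20169 at 30 min and 5181 of 34537 at 0 min. The AP-1 site occurred there in 9.51% at 30 min and 11.1% at 0 min, the half-site in 23.9% and 25.9%, and the forkhead site in 5.36% and 5.41%. At 0 min the AP-1, half-site and forkhead shares at starts were thus within counting error of the rest of the list. Windows of all gene starts were centred on the start base and held a median of 21 CG dinucleotides. The gene-start peak centres held 6 at 30 min and 3 at 0 min. The part of composition in the motif shares was not tested. Each motif was searched on both strands, overlaps between motifs were allowed, and a match is a stretch of letters rather than a bound site. Among the printed stretches, COPA held 1 half-site and 2 E-boxes, and DNAJB11 held 1 GC box and 1 forkhead site.

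**Figure D3:**
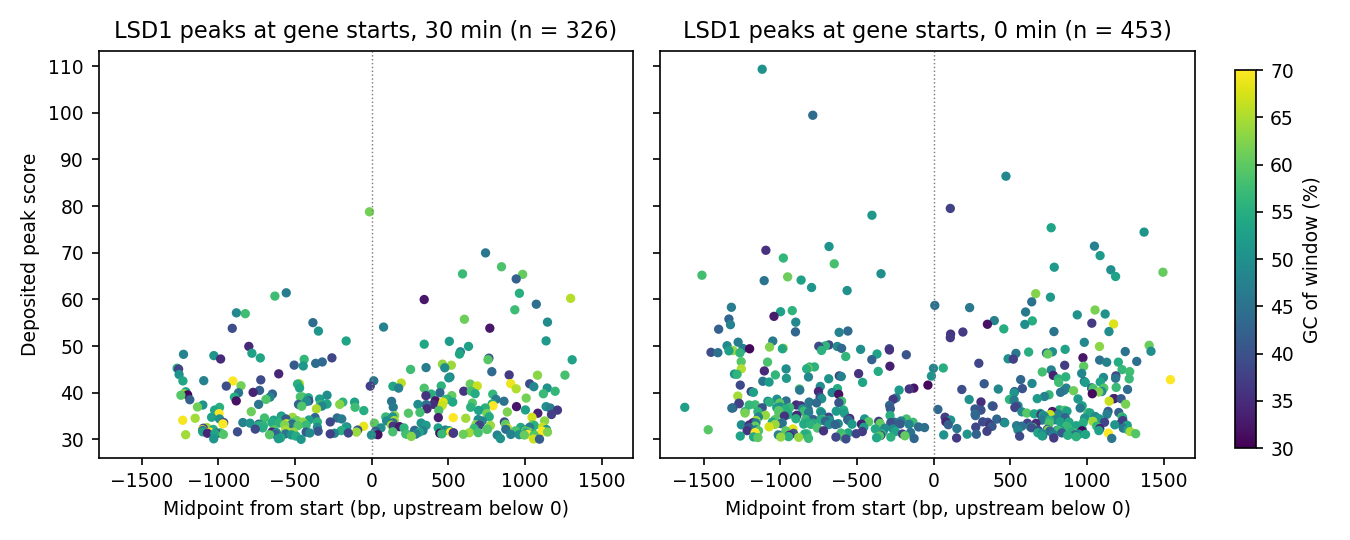
Deposited score of each LSD1 gene-start peak against the distance of its midpoint from the start in bp, at 30 min (left, n = 326) and 0 min (right, n = 453), coloured by the GC content of the 2 kb window. The highest peaks are OLIG1 at 78.8 on the left and COPA at 109 on the right, and GC-rich windows are rare near 0 on the right.

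The strongest gene-start peaks at 30 min were on genes of varied roles. Scores of the 326 peaks ran from 30.0 to 78.8 with a median of 35.2, against 36.1 for the rest of the list. OLIG1, a transcription factor of the oligodendrocyte lineage, had 78.8, rank 91 of the whole list, with its midpoint 15 bp upstream of the start. It was the sole peak of the top 10 that covered its start. DYNC2H1, the motor of retrograde transport in cilia, had 69.96, with its midpoint 742 bp downstream. GTPBP4, which acts in the assembly of the large ribosomal subunit, had 66.99. ETV3, an ETS family repressor, had 65.4. A peak of 64.4 inside CAPS2 touched the 1 kb window of its start and that of GLIPR1L2, its divergent neighbour, without covering either start. ANAPC5, a subunit of the anaphase-promoting complex, had 61.4, and PRR15 had 60.7. CCZ1B, part of a lysosomal trafficking complex, had 61.3, and its near-identical copy CCZ1 makes the placement of reads there uncertain. SMARCD2, a BAF remodelling subunit, had 60.2. Of the 10 highest-scored peaks, 8 had their midpoint in an intron and 0 overlapped an LSD1 peak at 0 min.

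The strongest gene-start peaks at 0 min were led by a shared peak of COPA and NCSTN. Scores of the 453 peaks ran from 30.1 to 109 with a median of 36.8, against 36.3 for the rest. The highest, 109 at chr1:160313804-160314812, touched the start windows of COPA, a coat protein of Golgi vesicles, and NCSTN, a subunit of gamma-secretase. It covered neither start and ranked 46 in the list. TMEM81 had 99.5, and both of these peaks overlapped an HP1γ peak at 0 min. NLGN1, a synaptic adhesion protein, had 86.4 over its own start. FAM72C had 79.5 and PDE4DIP, which anchors phosphodiesterase at the centrosome and Golgi, had 78.0. Both lie in duplicated parts of chromosome 1, where reads can be placed on near-identical copies. UBE2E1, a ubiquitin-conjugating enzyme, had 75.4. TRMT5, a tRNA methyltransferase, had 74.4, FAM13C had 71.4, RPUSD2 had 71.3 and SLC26A7, an anion exchanger, had 70.5. Of these 10 peaks, PDE4DIP alone overlapped an LSD1 peak at 30 min.

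A start peak at both times was found for 33 genes. They were 9.38% of the genes with a 30 min peak, while 0 min peaks lay at 2.38% of all genes. They were 6.83% of the genes with a 0 min peak, while 30 min peaks lay at 1.73% of all genes. The 2 peaks overlapped at 19 of the 33 genes and lay apart within the same window at 14, with a median of 448 bp between midpoints. Chromosome 3 held 11 of the 33 genes, chromosome 1 held 5 and chromosome 12 held 4. Among the peaks themselves, 18 of 326 at 30 min (5.52%, 3.52 to 8.56) overlapped a 0 min LSD1 peak, against 6.40% (6.07 to 6.74) of those away from starts. In the other direction, 23 of 453 peaks at 0 min (5.08%, 3.41 to 7.50) overlapped a 30 min LSD1 peak, against 3.70% (3.50 to 3.90). Recurrence at starts did not differ from recurrence elsewhere beyond the counting intervals.

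The 10 recurrent genes with the highest lower score had varied roles. DNAJB11, a chaperone of the endoplasmic reticulum, had a score of 53.2 at 30 min and 62.5 at 0 min, with an overlap of 411 bp upstream of its start. AGR2, a disulfide isomerase of the endoplasmic reticulum that is abundant in luminal breast cancer, had 40.3 at 30 min and 52.5 at 0 min, with midpoints 600 bp downstream of the start at 30 min and 111 bp downstream at 0 min. PIGR, the receptor that carries IgA across epithelia, had 43.2 at 30 min and 40.0 at 0 min, with midpoints 23 bp apart. HSPA8, the constitutive HSC70 chaperone, had 41.4 at 30 min and 38.5 at 0 min, with midpoints 453 and 495 bp into the gene. PTPRC, the leukocyte surface phosphatase CD45, had 38.2 at 30 min and 39.6 at 0 min, and its LSD1 peak overlapped an HP1γ peak of the same time at 30 min but not at 0 min. An HP1γ peak was called in the PTPRC window at 0 min too, beside the LSD1 peak. PDE4DIP had 45.7 at 30 min and 78.0 at 0 min, and ZNF852 had 40.2 and 57.4. OTOGL, a protein of the inner ear, had 39.5 at 30 min and 49.4 at 0 min, with midpoints 1 bp apart. CAPS2 and GLIPR1L2 shared a peak of 64.4 at 30 min and another of 42.8 at 0 min, with midpoints 1659 bp apart on either side of the starts.

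The hormone and lineage genes of these cells had few LSD1 peaks at their starts. Of 39 progestin response genes, 0 had a peak at 30 min and 1 at 0 min, NDRG1, a stress-induced gene, with a score of 30.4 close to the lowest in the list. Of 17 estrogen targets, 0 had a peak at 30 min and 2 at 0 min. RARA, the retinoic acid receptor, had 40.5 with its midpoint 225 bp upstream, and EBAG9 had 31.8. None of 19 luminal breast transcription factors, among them the genes of the estrogen receptor, GATA3 and FOXA1, had a peak at either time. The 26 genes of LSD1, CoREST and partners and the 14 genes of HP1 and H3K9 methylation had 0 at both times, as had 29 G1/S and replication genes, 16 cell cycle inhibitor and cell death genes, and 43 collagen genes. At the background shares of 1.73% and 2.38%, a list of this length would hold about 1 gene or fewer, so these zeros do not set the lists apart. The cell death list is also not complete, and HRK, a cell death gene outside it, had a start peak at 30 min.

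The next lists cover genes of other lineages, immediate-early genes and clustered gene families, and expression was not measured. They held few members with a start peak, so their shares are coarse beside the background of 1.73% at 30 min and 2.38% at 0 min. Of 20 basal and mesenchymal genes, 2 (10.0%) had a peak at 30 min and 1 (5.00%) at 0 min. ZEB1, an E-box repressor that drives mesenchymal state, had a peak at 30 min with a score of 35.5. CDH2, the neural cadherin, had one of 33.3 at 30 min. TP63, the basal cell regulator, had one of 49.1 at 0 min, 288 bp upstream of its start. Of 30 neuronal genes known to be repressed through REST, a partner of LSD1, CALB1 had a peak at 30 min with a score of 41.4, centred 10 bp upstream, and STMN2 had one of 64.0 at 0 min. Of 24 immediate-early genes, EGR2 had a peak at 0 min with 34.7, centred 75 bp downstream of its listed start. That start is the outer end of a span listed at 105 kb, and the distance to starts inside it was not measured. HOXA10 was the sole one of 39 HOX genes with a peak, at 30 min with 32.1. PTPRC was the sole one of 16 immune cell genes (6.25%) with a peak, at both times. Olfactory receptor genes, silent outside the nose, had peaks at 4 of 381 starts (1.050%) at 30 min and 9 of 381 (2.36%) at 0 min, led by OR10K2 with 34.4 at 30 min and OR6T1 with 58.7 at 0 min. Keratin-associated genes had 3 of 93 (3.23%) at 30 min, led by KRTAP5-11 with 32.1, and 5 of 93 (5.38%) at 0 min, led by KRTAP9-9 with 44.9. The KRTAP5-11 start is likewise the outer end of a span listed at 21.4 kb. Protocadherin genes had 3 of 64 (4.69%) at 30 min, led by PCDHGB4 with 40.0, and 4 of 64 (6.25%) at 0 min, led by PCDHA13 with 53.0. All of those with a peak lay in gene clusters on chromosome 5, where 2.14% of starts had a peak at 30 min and 4.95% at 0 min. Members of such clusters share sequence, which makes read placement uncertain.

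Housekeeping and other families showed small counts as well. Zinc finger genes had peaks at 5 of 498 starts (1.00%) at 30 min, led by ZNF639 with 55.7 and ZNF222 with 54.1, and at 12 of 498 (2.41%) at 0 min, led by ZNF852 with 57.4 and ZNF300 with 48.6. Replication histone genes had 3 of 64 (4.69%) at 30 min and 5 of 64 (7.81%) at 0 min. The 3 at 30 min were H4C3 with 34.7 and the near-identical copies H3C15 and H3C14 with 34.5 and 31.4. For both copies H2A was listed at 0 in every library. The 5 at 0 min lay in the large cluster on chromosome 6 and were led by HIST1H3A with 49.5, and 1 peak touched the start windows of both HIST1H2BG and HIST1H2AE. Oxidative phosphorylation genes had 2 of 87 at 30 min, NDUFS3 with 45.3 and SDHC with 32.1, and 4 of 87 at 0 min, led by NDUFA4 with 45.7. Solute carriers had 4 of 332 at 30 min, led by SLC25A48 with 39.1, and 5 of 332 at 0 min, led by SLC26A7. Potassium channels had 0 of 92 at 30 min and 4 of 92 at 0 min, led by KCNH1 with 46.6. Of 83 ribosomal protein genes matched by name pattern, RPL30 had a peak of 36.3 at 30 min and RPL38 one of 33.5 at 0 min. RPSA, a ribosomal protein gene that the pattern missed, also had a start peak at 30 min, so the 30 min count is too low for the family. Among 25 listed remodelling subunit genes, SMARCD2 had one at 30 min and BRD9, a bromodomain subunit of BAF, one of 43.1 at 0 min. Outside that list, the remodelling genes CHD1L at 30 min and BAZ2A at 0 min also had a start peak.

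NUDT5 was the sole one with a start peak among the 23 listed poly-ADP-ribose and NAD enzyme genes. The list is not complete, so NUDT5 does not stand alone in this class. Outside the list, QPRT, an enzyme of NAD synthesis, and ADPRH, an ADP-ribosyl hydrolase, had a start peak at 30 min. SIRT4, an NAD-dependent enzyme, had one at 0 min. The NUDT5 values follow. Its peak was called at 0 min at chr10:12237030-12237530, with a score of 43.0, rank 9624 and a midpoint 863 bp downstream of the start. The same peak touched the window of the CDC123 start, which lies closer to its midpoint. No LSD1 peak was called in the NUDT5 window at 30 min. H2A over NUDT5 had 5.53 RPKM at 0 min, 4.98 at 30 min and 5.62 at 60 min, a log2 change of −0.15 at 30 min beside the median of −0.14 over all genes.

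**Figure D4:**
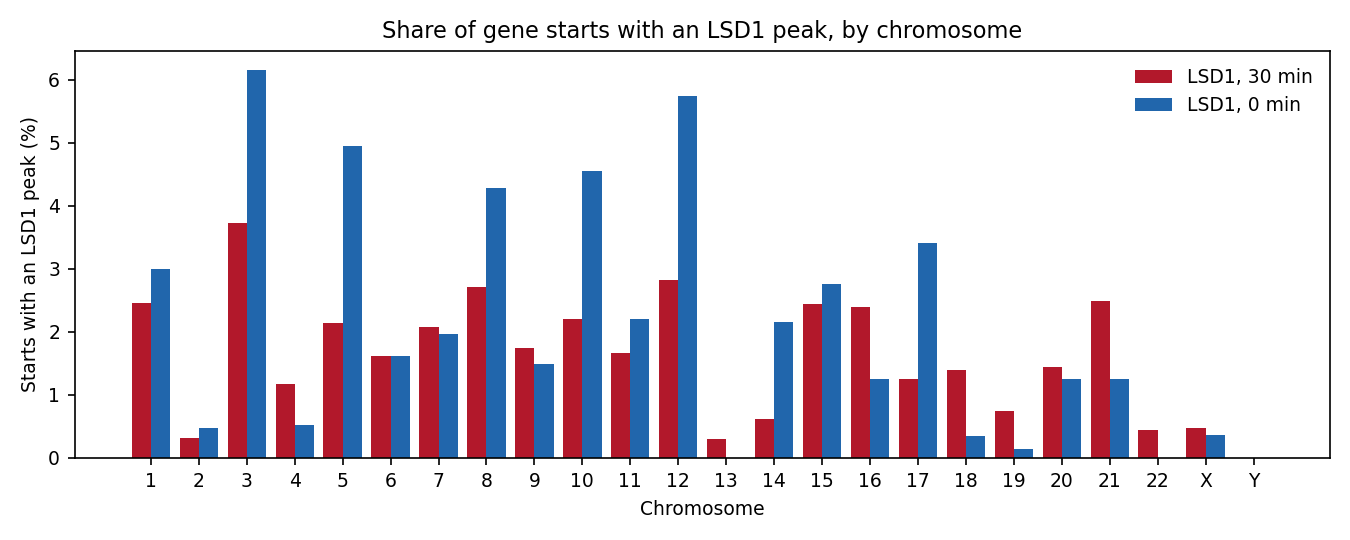
Percent of gene starts with an LSD1 peak on each chromosome, at 30 min (left bar) and 0 min (right bar). Chromosome 3 is highest at both times, at 3.73% and 6.15%, and chromosomes 2, 13, 19, 22 and X are low at both.

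The gene-start peaks were spread unevenly over chromosomes, as were all LSD1 peaks. On chromosome 3, 40 of 1073 starts (3.73%) had a peak at 30 min and 66 (6.15%) at 0 min. On chromosome 12 the shares were 2.82% at 30 min and 5.73% at 0 min. Chromosome 19, which has the most starts per Mb, had 11 of 1480 (0.743%) at 30 min and 2 (0.135%) at 0 min. Chromosomes 1, 3 and 12 held 34.7% of the gene-start peaks at 30 min and 38.9% at 0 min, against 20.7% of all starts. Across 24 chromosomes the share of starts with a peak ranked with LSD1 peaks per Mb, with a Spearman correlation of 0.805 at 30 min and 0.909 at 0 min, given as a description since both use the same list. Genes with a start peak also lay among more LSD1 peaks, with means of 2.63 other peaks within 100 kb at 30 min and 6.03 at 0 min, against 1.33 and 1.99 for all genes. T47D cells have gained and lost chromosome segments, and copy number was not measured here, so its part was not tested.

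HP1γ overlapped the gene-start peaks of LSD1 more often at 0 min than at 30 min. At 30 min, 12 of 326 (3.68%, 2.12 to 6.32) overlapped an HP1γ peak of the same time, against 3.56% (3.31 to 3.83) of LSD1 peaks away from starts. At 0 min, 50 of 453 (11.0%, 8.47 to 14.3) did, against 7.03% (6.77 to 7.31). The 2 intervals at starts do not overlap, nor do those at and away from starts at 0 min. HP1γ peaks themselves lay at starts more often at 0 min, with 2.56% of their list there against 1.99% at 30 min. The part of this in the overlaps was not tested. With both the LSD1 and the HP1γ lists limited to scores of at least 50, 0% of the 63 LSD1 peaks at 0 min overlapped HP1γ (0 to 5.75), although the COPA and TMEM81 peaks overlap HP1γ peaks of lower score. By gene, 29 starts had both proteins at 30 min, 8.24% of the LSD1 genes and 5.83% of the HP1γ genes, and 77 had both at 0 min, 15.9% of the LSD1 genes and 8.97% of the HP1γ genes. Over all genes, HP1γ lay at 2.45% of starts at 30 min and at 4.22% at 0 min, and LSD1 at 1.73% and 2.38%. The peaks themselves overlapped at 13 of the 29 and 44 of the 77. At ZNF639 on chromosome 3 the LSD1 and HP1γ peaks at 30 min shared 745 bp. HP1γ lists differ in length between times too, with 23836 peaks at 30 min and 31845 at 0 min, and this was not corrected for.

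A small number of gene-start peaks lay over BPTF peaks that changed with hormone. At 30 min, 3 overlapped recruited BPTF peaks (0.920%, against 0.159% away from starts) and 0 overlapped displaced ones (upper limit of the Wilson interval 1.17%). Recruited BPTF peaks themselves favoured starts, with 7.95% of 1848 at one. At 0 min, 4 overlapped recruited BPTF peaks (0.883%, against 0.174%) and 5 displaced ones (1.104%, against 0.863%). The 3 at 30 min were at LRRC31 with a score of 40.5, at NR6A1, an orphan nuclear receptor, with 34.7, and at ST6GALNAC1, a sialyltransferase, with 34.4. Displaced BPTF lay, among others, at the 0 min LSD1 peaks of UBE2E1, of NDUFA4 in complex I, of TMEM248 with 45.1 and of EPYC, a cartilage proteoglycan, with 39.8. Recruited BPTF lay at the 0 min peaks of EI24 with 55.4, HIST1H3A, ST6GALNAC1 with 38.6 and ZNF830 with 33.1. ST6GALNAC1 had LSD1 at both times, with midpoints 29 bp apart. Across all lists, 280 of the 326 peaks at 30 min (85.9%) and 354 of the 453 at 0 min (78.1%) overlapped no peak of any other list.

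H2A over the genes with LSD1 at their start moved with base composition. The change was the log2 ratio of RPKM plus 0.05 over genes with a mean of at least 0.1 RPKM. The median change at 30 min against 0 min was −0.12 for 334 genes with a 30 min start peak, −0.02 for 478 genes with a 0 min start peak and 0.04 for the 33 with both, against −0.14 for all 19709 genes tested. Median gene GC was 44.4%, 41.0% and 40.0% in the same groups, against 45.4% for all genes. With the trend on gene GC taken off, the 3 medians were 0.01, 0.00 and 0.00. At 60 min against 0 min the medians were −0.02, 0.01 and 0.03, against −0.03 for all genes.

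**Figure D5:**
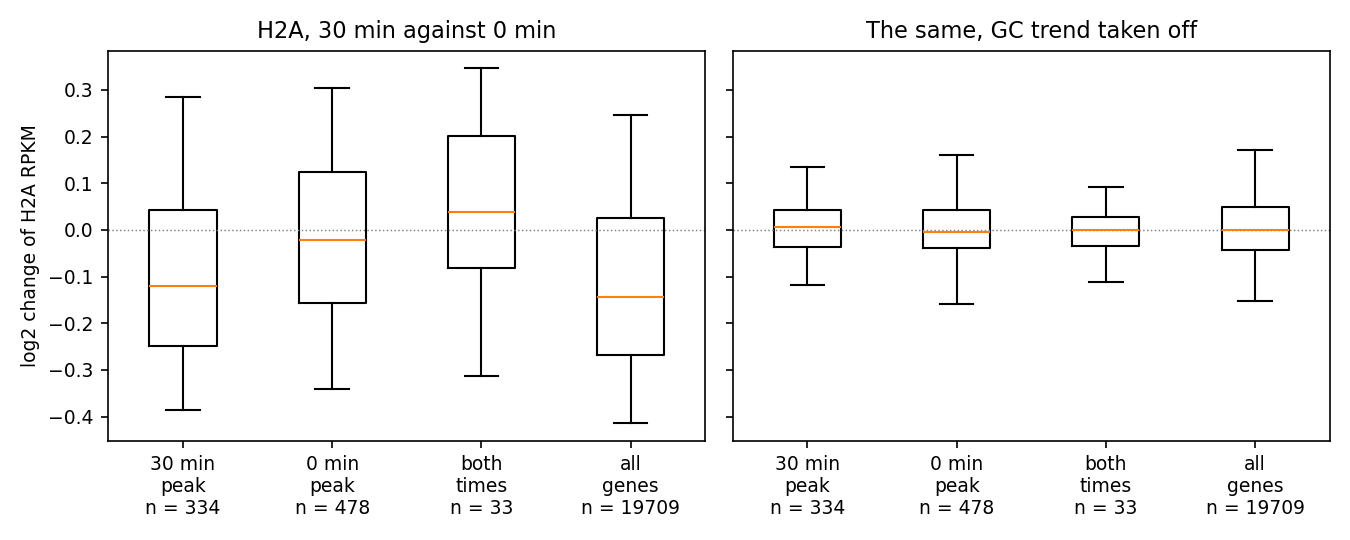
Log2 change of H2A RPKM at 30 min against 0 min in genes with an LSD1 start peak at 30 min, at 0 min or at both times and in all genes, as deposited (left) and with the GC trend taken off (right). Boxes span the quartiles with the median as a line and whiskers reach from the 5th to the 95th percentile; the medians of −0.12, −0.02 and 0.04 on the left draw together near 0 on the right.

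Few of these genes passed a log2 change of 0.5 in H2A. Among the genes with a 30 min start peak, 1 was higher and 4 were lower at 30 min, against 0.345% and 1.99% of all genes. Among those with a 0 min start peak, 4 were higher and 2 were lower. At 60 min, 1 gene with a 30 min start peak was higher and 1 lower, and 1 with a 0 min start peak was higher and 0 lower, against 0.249% and 0.639% of all genes. With the GC trend taken off, 0 genes with a 30 min start peak passed 0.5 either way at 30 min. Among those with a 0 min start peak, 1 was then higher and 0 were lower, against 78 and 47 of all 19709 genes tested. The genes named next fell outside the rule for named genes and were picked for their H2A values before that step. B4GALT3, a galactosyltransferase with LSD1 at 30 min, had 10.9 RPKM at 0 min, 7.54 at 30 min and 9.10 at 60 min. Its log2 change at 30 min was −0.52, and −0.27 with the GC trend taken off. TMEM129, with LSD1 at 30 min, had 4.28 RPKM at 0 min, 2.83 at 30 min and 3.36 at 60 min. RGS1, a regulator of G protein signalling with LSD1 at 0 min, had 2.29 RPKM at 0 min, 3.46 at 30 min and 2.55 at 60 min.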

How the data were processed

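Peak lists of LSD1, HP1γ and BPTF and a gene table of H2A were used, each list from 1 ChIP-seq library per antibody and time. Bowtie 1.0.0, HOMER 4.7.2 and the build hg19 are named in the submitters' processing notes. H2A is given in RPKM as deposited by the authors, and GENCODE version 18 was counted without regard to strand, per the file headers. RPKM was compared within a gene across times. Each LSD1 and HP1γ peak carries a position and a score that the authors deposited, 30 or higher. How the score was defined and which control the caller used are not given in the sources used here, and neither are the criterion for the BPTF lists, which the authors deposited as positions, nor the handling of reads with several placements. The depth of the libraries behind the peaks is unknown.

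Gene starts came from the H2A table of 20318 genes. Each gene had a single start, the outer end of its listed span, which can lie far from other starts of the gene. The H2A table gave symbols for 17672 genes, GENCODE version 44 on GRCh37 gave 1842 more by identifier, and 804 had none. Features and sequences came from the GRCh37 reference. A peak belonged to a start when at least 1 bp lay within 1 kb of it. Shares carry Wilson 95% intervals and ratios of counts exact binomial ones (Python 3.11.15, pandas 2.3.3, SciPy 1.17.1). A midpoint near several starts counts once for each in the density ratios. The counting and overlap steps were tested on simulated data. The members and the 24 gene lists were chosen with earlier results of these data known, and the pattern for histone genes was widened to newer symbols after values were seen. The named genes are the 10 highest-scored start peaks at each time, the 10 genes with peaks at both times by the lower score, up to 10 peaks over changed BPTF peaks, any progestin response gene, and up to 3 genes per other list and time. The density ratio close to starts, its split by GC and the motif shares were added after seeing the data. Alternatives were other windows, score limits, starts, overlaps and H2A scalings. The sequence of 1 highest-scored peak and the values of some genes under this rule are not reported here.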

Additional observations from a re-analysis of the deposited data

How the results depend on the processing

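Of 99 recomputed values over 13 results, 64 stayed within 1.5 times a count or within the interval of a share, median or ratio, and 35 moved. A 500 bp window gave 190 gene-start peaks at 30 min (0.927% of the list) and 214 at 0 min (0.612%), 15 genes with both and 7 peaks over changed BPTF peaks. A 2 kb window gave 596 (2.91%), 932 (2.66%), 86 and 21. With the midpoint inside the window the shares were 1.249% at 30 min and 0.895% at 0 min. All protein-coding transcript starts gave 576 peaks at 30 min (2.81%), 906 at 0 min (2.59%), 97 genes with both and a median H2A change of 0.0046 for genes with a 0 min peak. A score of at least 50 in every scored list left 26 peaks at 30 min and 63 at 0 min, 1 gene with both, 3 over changed BPTF peaks and 0% of 0 min peaks over HP1γ (upper limit 5.75%). Lists of equal length gave 277 peaks at 0 min. Without chromosomes 3 and 12, 18 genes had both and 3.07% of 30 min peaks overlapped a 0 min LSD1 peak. An overlap of at least 0.5 of the shorter peak gave 7.73% of 0 min peaks over HP1γ and 4 over changed BPTF peaks. The H2A median of genes with a 30 min peak was −0.0935 with a pseudocount of 0.5, 0.0217 centred on all genes and 0.0062 with the GC trend taken off, and that of genes with a 0 min peak was 0.12 centred. The density ratio close to starts at 0 min was 0.359 (0.185 to 0.632) at a score of at least 50, and its other added alternatives, chosen after seeing the data, stayed within its interval at both times. Over all protein-coding transcript starts the 30 min ratio was 0.853 (0.775 to 0.936), an interval below 1. Midpoints near several of these starts were counted once for each. No paired analysis was possible because each antibody and time had 1 library and no result comes from a test.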
